A study of Homo sapiens with 8 samples.

Results

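The 42 genes described here are interferon response genes, read in RNA sequencing of 8 libraries of HMLE, an established line grown from the epithelium of the human breast and made immortal in culture. They were chosen by name, as genes known to be switched on by interferons, and all 42 had rows among the 25166 genes of the deposited table. The cells carried a lentiviral scrambled shRNA (SHC002) or a single shRNA against the transcription factor SOX4 (TRCN0000018213), and every group was selected with puromycin at 0.5 µg/mL. Each kind of cell was studied without treatment and after 16 h of TGF-β, a cytokine that drives epithelial cells towards a mesenchymal state, which gave 4 groups of 2 libraries: scrambled untreated, scrambled with TGF-β, SOX4 shRNA untreated and SOX4 shRNA with TGF-β. With 1 shRNA against SOX4 in 1 cell line, an effect of losing SOX4 and any other effect of that hairpin cannot be told apart. In bulk RNA, more cells expressing a gene and more RNA per cell cannot be told apart either. The labels do not tell whether replicates were grown apart, so the p-values cover the spread between the deposited samples alone, and that spread may be technical.

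Interferons are secreted proteins that warn cells of infection. Type I and type III interferons act through receptors and the JAK kinases to assemble a transcription complex that includes STAT2 and IRF9 and binds the interferon-stimulated response element (ISRE). Interferon-gamma acts mainly at the gamma-activated site (GAS) and raises IRF1, itself an activator of many of the same genes. The products sense viral RNA, block viral replication, attach the ubiquitin-like protein ISG15 to other proteins or present antigen, and epithelial cells keep many of them at a low level without infection.

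Levels are in FPKM, that is reads per kilobase of transcript and per 1 M reads of the library. Decimal marks had been lost from part of the deposited cells and were restored from the whole reads behind each value. For 32 of the 42 genes this gave settled values, and 26 of those reached 1 FPKM in at least 2 libraries and were fitted, among 6132 genes in all. The other 6 settled genes were below that level, and the 10 remaining genes are described last. The scale of the libraries was 12.6 M to 16.8 M reads, and the fitted genes' replicates differed by more than counting noise (median chi-square per gene 1.2 to 5.13, against 0.45 from counting alone). SOX4 itself was at 8.74 and 8.04 FPKM in untreated scrambled libraries, 18.7 and 17.6 with TGF-β, 0.923 and 1.02 in untreated SOX4-shRNA libraries, and 2.37 and 1.88 with TGF-β. The 4 knockdown libraries were thus the lowest. The basal epithelial markers KRT5, KRT14, KRT17, TP63 and ITGA6 were all at 1 FPKM or more in every library. Of 6 luminal epithelial markers, KRT8, KRT18, EPCAM, MUC1 and GATA3 were also at 1 FPKM or more in every library, and KRT19 was not. All 6 leukocyte markers stayed below 1 FPKM, and of 4 plasmacytoid dendritic cell markers IL3RA, CLEC4C and LILRA4 were listed at 0 in every library, while TCF4 was at 1 FPKM or more in each. CD3E was also listed at 0 throughout, and PTPRC was at most 0.0167 FPKM.

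Promoter sequences are shown first, because these genes are grouped by how they are known to be switched on. RefSeq promoters (GRCh38.p14) were matched for 34 of the 42 genes, and the 250 bases before each start were searched on both strands for the ISRE core, 2 copies of GAAA with any 2 bases between them, and for the GAS core TTCNNNGAA, which reads the same on both strands. The ISRE core was present in 19 of the 34 promoters (55.9%), against 3.02% of all 35116 promoters in the table. The GAS core was present in 9 of the 34 (26.5%), against 6.57% of all promoters, and 5 promoters held both. For each member only the first promoter listed was searched, while the share over all promoters counts every listed promoter. Both cores are short, so a match is a description of the letters and not of a bound site, and no binding was measured. The stretches below are a choice, each with a match, from members that passed a test in some comparison or that headed the list by level. Each runs 5′ to 3′ on the gene's own strand, with matches to either core in capitals. Read from the other strand, the ISRE core is 2 copies of TTTC with any 2 bases between them.
IRF1 (minus strand, chr5:132490864-132490922): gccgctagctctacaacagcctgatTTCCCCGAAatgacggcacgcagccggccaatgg
DDX60 (minus strand, chr4:168318771-168318901): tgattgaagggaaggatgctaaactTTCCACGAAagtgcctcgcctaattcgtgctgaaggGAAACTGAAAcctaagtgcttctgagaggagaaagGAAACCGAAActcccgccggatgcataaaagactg
IFIT5 (plus strand, chr10:89414498-89414567): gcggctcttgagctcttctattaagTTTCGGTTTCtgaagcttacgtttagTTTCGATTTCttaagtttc
HERC5 (plus strand, chr4:88456969-88457079): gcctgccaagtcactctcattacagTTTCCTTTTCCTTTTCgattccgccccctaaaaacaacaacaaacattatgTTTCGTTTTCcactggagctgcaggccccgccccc
ISG20 (plus strand, chr15:88638922-88638981): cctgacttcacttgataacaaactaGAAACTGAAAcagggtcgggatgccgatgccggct
ISG15 (plus strand, chr1:1013359-1013424): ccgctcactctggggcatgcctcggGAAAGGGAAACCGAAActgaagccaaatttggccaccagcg
The IRF1 window held a GAS core and no ISRE core, DDX60 held both kinds, and IFIT5, HERC5, ISG20 and ISG15 held the ISRE core only. In HERC5 and ISG15 neighbouring ISRE matches overlap. Of the other members that passed a test, UBE2L6 and HERC6 held neither core in this window, and IFIT2, TRIM22 and USP18 were not among the matched promoters. Of the other members that headed the list by level, IFI16 held neither core and OAS3 held the ISRE core only.

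Most of the genes were expressed at a low basal level. Among the 32 settled genes the highest in untreated scrambled cells were IFI16, a sensor of DNA, at 35.1 and 38.1 FPKM, OAS3, an enzyme that makes the 2′-5′ oligoadenylates that activate RNase L, at 28.3 and 27.6 FPKM, and ISG15 at 25.1 and 23.9 FPKM. UBE2L6, the E2 enzyme for ISG15, followed at 19.0 and 17.9 FPKM. These neighbours in the order lie close together: the OAS3 libraries were above those of ISG15, and both IFI16 libraries were above both of OAS3. At the other end OAS2 was at 1.18 and 1.09 FPKM and SAMD9L at 1.02 and 0.971 FPKM. The 6 settled genes below the filter included the strongly interferon-induced IFI44L (0.0558 to 0.282 FPKM over the 8 libraries), RSAD2 (0.066 to 0.915), MX2 (listed at 0 in 3 libraries and at most 0.207) and CMPK2 (at most 0.129). XAF1 was at most 0.416 FPKM, and BST2, which tethers budding virions, was at 0.247 to 1.58 FPKM on 3 to 18 reads.

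**Figure D1:**
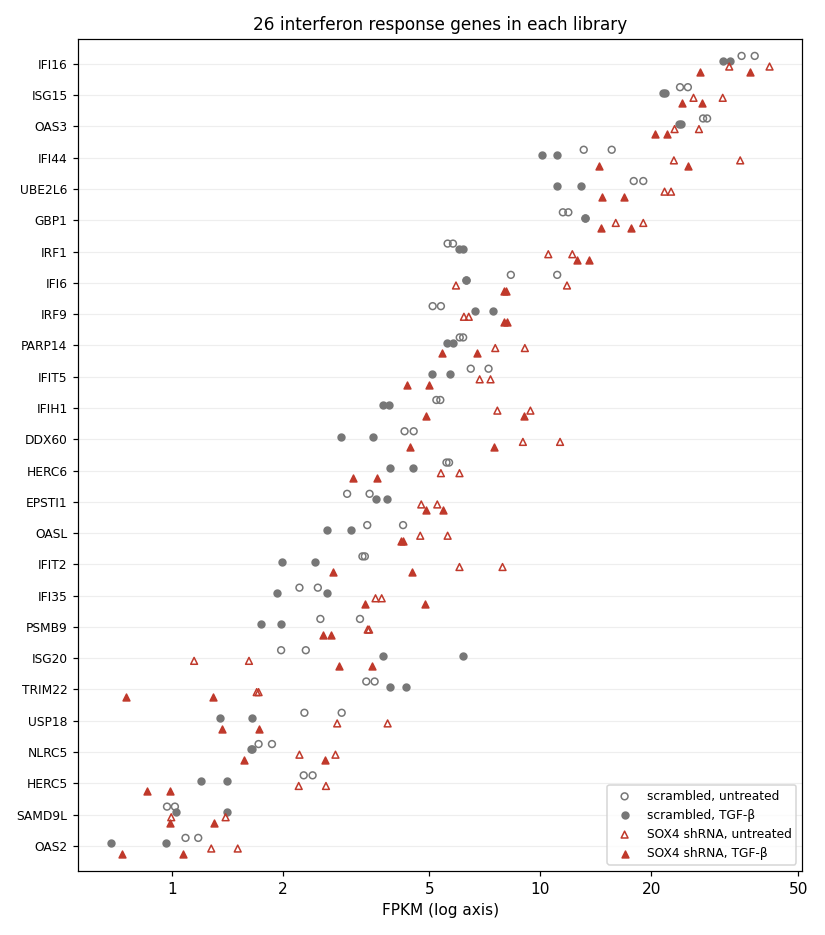
FPKM (log axis) of the 26 fitted genes in each library, ordered by mean level. Circles are scrambled and triangles SOX4-shRNA libraries, open untreated and filled TGF-β-treated, with 2 points per group. IFI16, ISG15 and OAS3 stood above 20 FPKM in every library, and OAS2 and SAMD9L lay near 1 FPKM.

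The first comparison asked what the SOX4 shRNA changed in untreated cells. IRF1, DDX60 and IFIT2 were higher than in scrambled cells, with ratios of the mean FPKM of 1.99, 2.29 and 2.10, and TRIM22 was lower, with a ratio of 0.495. Of the 26 fitted genes these were 3 called higher (limma, adjusted p under 0.05), against a background of 1.24% of all 6132 genes, and 1 called lower, against 3.65%. The other 22 did not pass the test. Without regard to the test, 22 of the 26 had a positive difference, with a median of 0.24 in log2(FPKM + 1), while 48.7% of all genes had a positive difference and their median was -0.01. Without either of the TGF-β-treated SOX4-shRNA libraries, 7 genes were called instead of 4, the added ones being IFIH1, IFI44 and GBP1. Some markers of cell type differed with the knockdown as well. KRT17, a basal keratin, was at 1747 and 1750 FPKM in untreated scrambled and 807 and 642 FPKM in untreated SOX4-shRNA libraries, and with TGF-β at 1966 and 2024 against 947 and 1027 FPKM. KRT5 was lower too (3945 and 3478 against 3302 and 2940 FPKM untreated, 3295 and 3335 against 2886 and 2951 with TGF-β). KRT14 was lower untreated (2106 and 1868 against 1800 and 1446 FPKM) but higher with TGF-β (2596 and 2649 against 2837 and 2875). The luminal marker EPCAM was higher (71.6 and 75.6 against 97 and 114 FPKM untreated, 59.1 and 55.8 against 99.4 and 69.6 with TGF-β). KRT19 stayed below 1 FPKM. The marks of TP63, ITGA6, KRT8, KRT18, MUC1 and GATA3 were not settled. Of the 5 fibroblast markers, COL1A1, a fibrillar collagen chain, was at 73.7 and 67.2 FPKM against 12.8 and 9.42 FPKM untreated, and at 110 and 127 against 25.9 and 34.8 FPKM with TGF-β. COL3A1 was also lower in each SOX4-shRNA library (0.884 to 1.97 FPKM) than in any scrambled one (3.32 to 4.11), LUM and PDGFRA stayed below 1 FPKM throughout, and the decimal marks of DCN were not settled. The part of these marker differences in the results was not tested.

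IRF1, the transcription factor that activates interferon-gamma targets and basal antiviral genes, gave the firmest rise. It stood at 5.79 and 5.6 FPKM in untreated scrambled libraries and at 12.2 and 10.5 FPKM in untreated SOX4-shRNA libraries. With TGF-β it stood at 6.0 and 6.17 FPKM in scrambled libraries and at 12.6 and 13.5 FPKM in SOX4-shRNA libraries. All 4 SOX4-shRNA libraries were above all 4 scrambled ones, on 237 to 687 reads per library. The difference in log2(FPKM + 1) was 0.88 ± 0.12 (SE) untreated (limma adjusted p = 0.0066, ratio of the means 1.99) and 0.99 ± 0.12 with TGF-β (adjusted p = 0.0035, ratio 2.15). Leaving out either scrambled library of the group compared ended the call, with an adjusted p of 0.062 and 0.064 untreated (difference 0.90 and 0.86) and of 0.058 and 0.056 with TGF-β (difference 0.97 and 1.01). The untreated and the TGF-β call held without each of the other 6 libraries. IRF1 lies on chromosome 5 at 131776132 to 131844411 on the minus strand (GRCh37), and its exons overlap IRF1-AS1 on the opposite strand, whose reads may be included, since no source used here says whether reads were counted by strand.

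IRF9, the DNA-binding partner of STAT2, differed less. It was at 5.37 and 5.10 FPKM in untreated scrambled and at 6.39 and 6.20 FPKM in untreated SOX4-shRNA libraries, a difference of 0.23 that did not pass the test. With TGF-β it was at 7.43 and 6.66 FPKM in scrambled and at 7.95 and 8.09 FPKM in SOX4-shRNA libraries.

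DDX60, a helicase that assists RIG-I-like RNA sensors, had the largest knockdown difference of the 26 in untreated cells. It was at 4.28 and 4.53 FPKM in untreated scrambled libraries and at 8.96 and 11.3 FPKM in untreated SOX4-shRNA libraries. After TGF-β it was at 3.51 and 2.88 FPKM in scrambled libraries and at 7.47 and 4.42 FPKM in SOX4-shRNA libraries. The groups did not overlap in either state, but the TGF-β-treated SOX4-shRNA libraries lay far apart. The rise in untreated cells was 1.03 ± 0.21 (adjusted p = 0.034), and with TGF-β the difference of 0.70 ± 0.21 did not pass the test. The untreated call ended when any 1 of 6 libraries was left out, that is any but the TGF-β-treated SOX4-shRNA ones (adjusted p up to 0.19, difference 0.88 to 1.18). DDX60 lies on chromosome 4 at 169137442 to 169240034 on the minus strand (GRCh37). IFIH1 (MDA5), the sensor of long double-stranded RNA, was at 5.35 and 5.22 FPKM in untreated scrambled and 7.64 and 9.39 FPKM in untreated SOX4-shRNA libraries. Its difference of 0.59 ± 0.23 was not called.

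IFIT2 belongs to the IFIT family, which binds foreign RNA and restrains its translation. It was at 3.29 and 3.34 FPKM in untreated scrambled libraries and at 6.03 and 7.89 FPKM in untreated SOX4-shRNA libraries. Under TGF-β it was at 2.45 and 1.99 FPKM in scrambled libraries and at 4.48 and 2.74 FPKM in SOX4-shRNA libraries. The untreated rise was 0.87 ± 0.20 (adjusted p = 0.048), close to the threshold, and it was no longer called without any 1 of the same 6 libraries (adjusted p up to 0.22, difference 0.70 to 1.04), with a pseudocount of 0.1 FPKM, with libraries scaled to a common median or among genes with 1 transcript only. IFIT2 lies on chromosome 10 at 91043451 to 91069028 (GRCh37), with exons overlapped by LIPA on the opposite strand. IFIT5, its relative, was at 6.47 and 7.23 FPKM in untreated scrambled and 6.84 and 7.32 FPKM in untreated SOX4-shRNA libraries, which overlap.

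IFI44, an interferon-induced protein found with the microtubules, had wide replicates. It was at 13.1 and 15.6 FPKM in untreated scrambled libraries, 23.0 and 34.8 FPKM in untreated SOX4-shRNA libraries, 11.1 and 10.1 FPKM in scrambled libraries with TGF-β, and 25.1 and 14.4 FPKM in SOX4-shRNA libraries with TGF-β. The SOX4-shRNA libraries were above the scrambled ones within each state, and the differences of 0.94 ± 0.27 and 0.79 ± 0.27 were not called. IFI16, in contrast, overlapped between the groups, with 32.5 and 41.8 FPKM in untreated SOX4-shRNA libraries. IFI35 was at 2.22 and 2.49 FPKM in untreated scrambled and 3.71 and 3.57 FPKM in untreated SOX4-shRNA libraries (0.47 ± 0.17, not called). IFI6, a mitochondrial protein, overlapped between the groups at 5.90 to 11.8 FPKM over untreated libraries.

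TRIM22, a RING-finger protein that restricts viral transcription, moved the other way. It was at 3.55 and 3.37 FPKM in untreated scrambled libraries and at 1.70 and 1.72 FPKM in untreated SOX4-shRNA libraries. In TGF-β-treated cells it was at 3.91 and 4.33 FPKM in scrambled libraries and at 1.29 and 0.753 FPKM in SOX4-shRNA libraries, on 33 to 172 reads over the 8 libraries. Each SOX4-shRNA library was below each scrambled one. Untreated the fall was -0.72 ± 0.15 (adjusted p = 0.036). With TGF-β it was -1.35 ± 0.15 (adjusted p = 0.0026, ratio of the means 0.248). The call with TGF-β held without each of the 8 libraries in turn (adjusted p 0.0036 to 0.045), while the untreated one ended without any 1 of the 6 libraries other than the TGF-β-treated SOX4-shRNA ones (adjusted p up to 0.20) and with a pseudocount of 0.1 FPKM. The table splits TRIM22 between transcripts NM_006074 and NM_001199573, and these values are their sums. Both untreated SOX4-shRNA libraries were assigned to NM_001199573 (1.69 and 1.71 FPKM) and the other 6 libraries to NM_006074. TRIM22 lies on chromosome 11 at 5710840 to 5758319 (GRCh37) and overlaps OR52P1 and OR56B1 on its own strand.

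The remaining effectors differed less on knockdown. OAS3 was lower, at 28.3 and 27.6 FPKM in untreated scrambled and 26.9 and 23.1 FPKM in untreated SOX4-shRNA libraries, and was not called. ISG20 was lower too, at 1.98 and 2.31 against 1.15 and 1.62 FPKM untreated. With TGF-β it was at 3.75 and 6.18 against 2.85 and 3.5 FPKM, and it was called in neither state. OASL, a relative of OAS3 that binds RNA but makes no oligoadenylate, was at 4.72 and 5.6 FPKM in untreated SOX4-shRNA libraries. OASL was above its scrambled libraries (4.24 and 3.39 FPKM) with a difference of 0.36 ± 0.14 that did not pass the test. GBP1, a guanylate-binding GTPase induced mainly by interferon-gamma, was at 11.5 and 11.9 FPKM in untreated scrambled and 16.0 and 19.0 FPKM in untreated SOX4-shRNA libraries. GBP1 did not pass the test either (0.54 ± 0.13). EPSTI1 was at 3.44 and 2.99 FPKM in untreated scrambled and 4.75 and 5.25 FPKM in untreated SOX4-shRNA libraries (0.51 ± 0.12, not called). PARP14, an ADP-ribosyltransferase, was at 6.04 and 6.17 FPKM in untreated scrambled and 7.54 and 9.07 FPKM in untreated SOX4-shRNA libraries (0.38 ± 0.14, not called). The immunoproteasome subunit PSMB9 and NLRC5, the activator of MHC class I genes, were at 3.40 and 3.43 FPKM and at 2.78 and 2.22 FPKM there, with differences of 0.19 and 0.32 that were not called. SAMD9L and OAS2 overlapped between the untreated groups or differed by no more than 0.16.

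With TGF-β, the knockdown comparison called IRF1 higher and TRIM22 lower among the 26 genes, against backgrounds of 1.16% and 3.15%, and 24 did not pass the test. A positive difference was seen for 18 of the 26, with a median of 0.22, against 51.9% of all genes and a median of 0.01. Without the TGF-β-treated SOX4-shRNA library of replicate 2, 3 genes were called higher instead of 1, the added ones being DDX60 and IFIH1. That library was the lower of its pair for 18 of the 26 genes, with a median difference between the replicates of -0.15, while in 49.1% of all genes it was the higher one. In untreated SOX4-shRNA cells, replicate 2 was the higher for 17 of the 26, with a median difference of 0.13. The part of this replicate difference in the results was not tested.

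**Figure D2:**
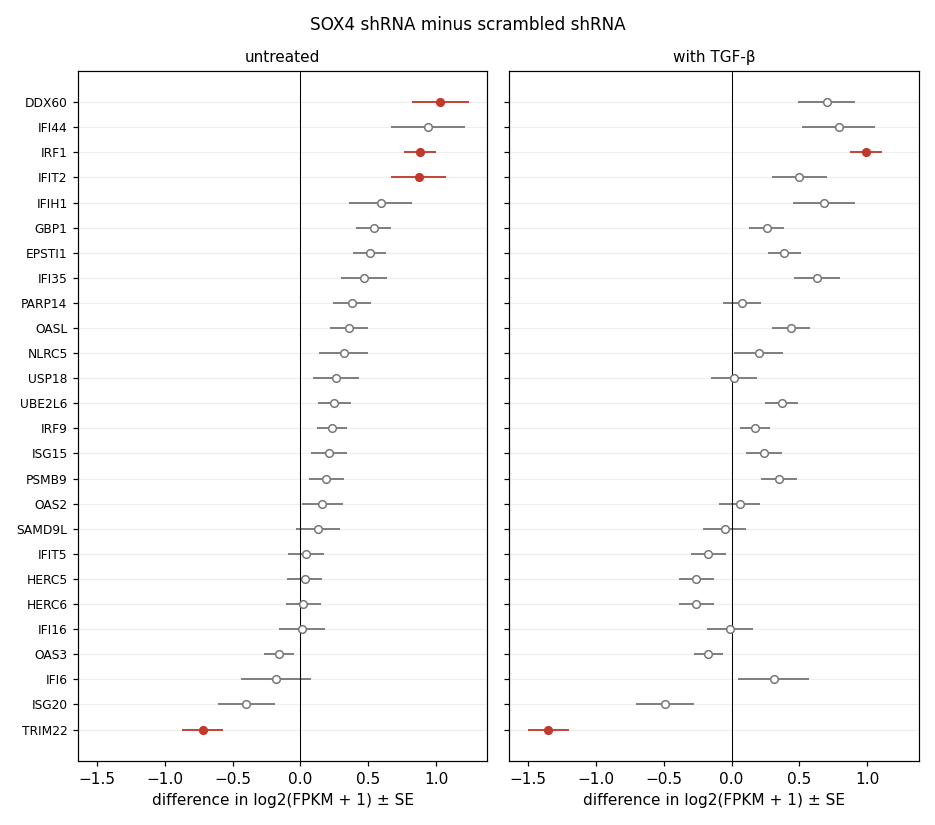
Difference in log2(FPKM + 1) between SOX4-shRNA and scrambled cells, without TGF-β on the left and with TGF-β on the right, for the 26 fitted genes. Points are fitted differences, bars 1 SE, and filled red points passed the test (limma, adjusted p under 0.05, 2 libraries a group). IRF1 and TRIM22 passed in both panels, and DDX60 and IFIT2 on the left.

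The second question was what TGF-β changed, first in scrambled cells. UBE2L6 and HERC5, enzymes of ISG15 conjugation, fell, to ratios of the means of 0.648 and 0.554, and the exonuclease ISG20 rose by a ratio of 2.32. Of the 26 genes 1 was called higher, against a background of 4.81%, and 2 lower, against 2.05%. A negative difference was seen for 19 of the 26, with a median of -0.22, against 55.4% of all genes and a median of -0.03. In SOX4-shRNA cells 4 genes were called lower, against a background of 1.99%, namely HERC5, HERC6, USP18 and IFIT5. None was called higher by limma, against 5.51%. At an unadjusted limma p under 0.05, 2 genes were higher and 9 lower in SOX4-shRNA cells, and 2 were higher and 6 lower in scrambled cells. The difference was negative for 21 of the 26 there, with a median of -0.26, against 56.1% of all genes and a median of -0.04.

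The ISG15 group held 5 genes, all fitted, and all 5 had a negative TGF-β difference in both kinds of cell. HERC5, the E3 ligase that attaches ISG15 to newly made proteins, was at 2.28 and 2.41 FPKM in untreated scrambled libraries and 1.2 and 1.41 FPKM with TGF-β. In SOX4-shRNA cells it was at 2.21 and 2.62 FPKM untreated and 0.992 and 0.855 FPKM with TGF-β. All 4 TGF-β-treated libraries lay below all 4 untreated ones. The fall was -0.54 ± 0.13 in scrambled cells (adjusted p = 0.046) and -0.83 ± 0.13 in SOX4-shRNA cells (adjusted p = 0.0083). The first of these calls ended without any 1 of 6 libraries, that is any but the untreated SOX4-shRNA ones (adjusted p up to 0.29), and with a pseudocount of 0.1 FPKM. The second ended without replicate 2 of either SOX4-shRNA group (adjusted p up to 0.055, difference -0.91 to -0.74). The HERC5 gene spans 89378270 to 89427314 of chromosome 4 (GRCh37, plus strand), next to HERC6.

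HERC6, a related ligase, was at 5.56 and 5.65 FPKM in untreated scrambled libraries and 4.52 and 3.91 FPKM with TGF-β. In SOX4-shRNA cells it was at 5.37 and 6.03 FPKM untreated and 3.61 and 3.11 FPKM with TGF-β, a fall of -0.62 ± 0.13 (adjusted p = 0.025) that was not called without 6 of the 8 libraries, those other than replicate 1 of the SOX4-shRNA groups (adjusted p up to 0.12). USP18, the protease that removes ISG15 and also dampens the type I interferon receptor, was at 2.89 and 2.29 FPKM in untreated scrambled libraries and 1.65 and 1.35 FPKM with TGF-β. In SOX4-shRNA cells it was at 3.85 and 2.81 FPKM untreated and 1.72 and 1.37 FPKM with TGF-β, a fall of -0.76 ± 0.17 (adjusted p = 0.033). Every treated library of USP18 and HERC6 lay below every untreated one. The USP18 call was kept only without replicate 2 of the untreated SOX4-shRNA group and ended without each of the other 7 libraries (adjusted p up to 0.15).

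UBE2L6 was at 19.0 and 17.9 FPKM in untreated scrambled libraries and 11.1 and 12.9 FPKM with TGF-β, a fall of -0.59 ± 0.12 (adjusted p = 0.029, ratio of the means 0.648). In SOX4-shRNA cells it was at 22.6 and 21.7 FPKM untreated and 14.7 and 16.8 FPKM with TGF-β, which did not overlap but was not called. The call in scrambled cells ended without any 1 of the 4 scrambled libraries (adjusted p up to 0.25). ISG15 itself was at 25.1 and 23.9 FPKM untreated and 21.5 and 21.8 FPKM with TGF-β in scrambled cells, and at 31.2 and 26 FPKM and then 24.2 and 27.4 FPKM in SOX4-shRNA cells. Neither ISG15 difference (-0.17 and -0.14) was called.

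IFIT5 was at 6.47 and 7.23 FPKM in untreated scrambled libraries and 5.07 and 5.68 FPKM with TGF-β, and in SOX4-shRNA cells at 6.84 and 7.32 FPKM and then 5.0 and 4.34 FPKM. The fall in SOX4-shRNA cells was -0.51 ± 0.13 (adjusted p = 0.047), and it was not called without any 1 of the 8 libraries (adjusted p 0.063 to 0.18) or with libraries scaled to a common median. The values of IFIT2 and DDX60 with TGF-β, given above, were below the untreated ones in group mean in both kinds of cell and were not called in either, though in SOX4-shRNA cells both were called without replicate 1 of the TGF-β-treated group.

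ISG20, an exonuclease that degrades single-stranded viral RNA, was the member that rose. It was at 1.98 and 2.31 FPKM in untreated scrambled libraries and 3.75 and 6.18 FPKM with TGF-β, on 22 to 64 reads. In SOX4-shRNA cells it was at 1.15 and 1.62 FPKM untreated and 2.85 and 3.50 FPKM with TGF-β. The groups did not overlap in either kind of cell. The rise in scrambled cells was 0.90 ± 0.21 (adjusted p = 0.044), and it ended without any 1 of the 4 scrambled libraries (adjusted p up to 0.26, difference 0.60 to 1.19). In SOX4-shRNA cells the difference was 0.81 ± 0.21 and was called only under some alternatives, a pseudocount of 0.1 FPKM among them. IRF9 also had higher values with TGF-β in both kinds of cell, by 0.37 and 0.31, without passing the test, and IRF1 did not pass it (0.08 and 0.19).

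**Figure D3:**
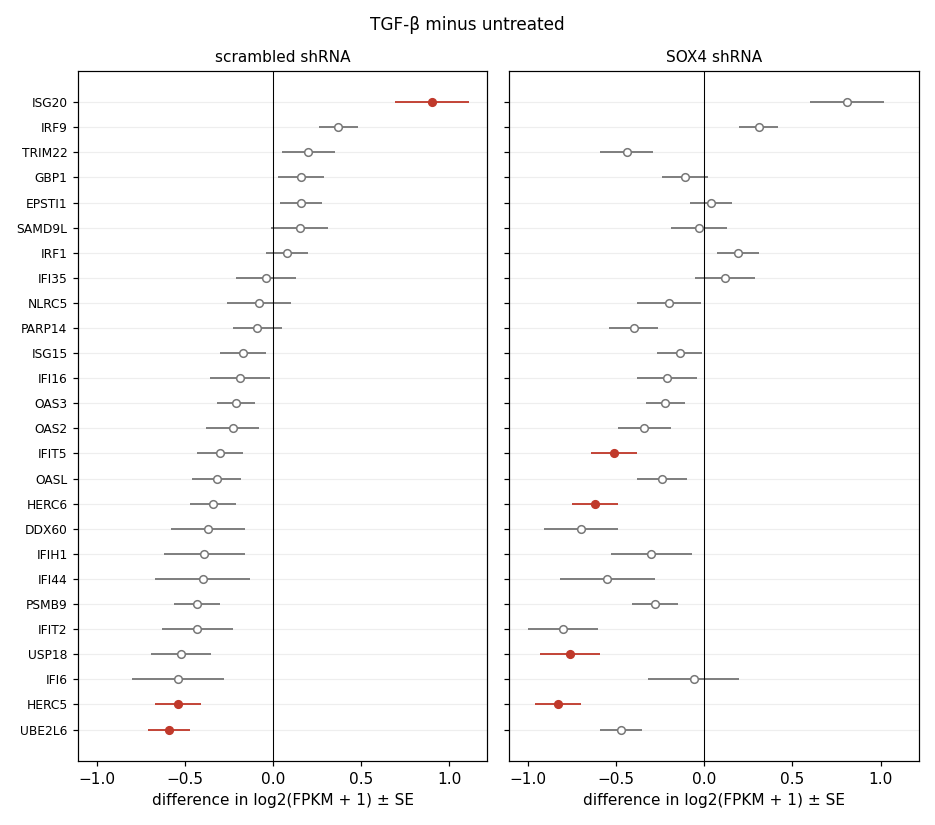
Difference in log2(FPKM + 1) between TGF-β-treated and untreated cells, scrambled shRNA on the left and SOX4 shRNA on the right, for the 26 fitted genes. Points are fitted differences, bars 1 SE, and filled red points passed the test (limma, adjusted p under 0.05, 2 libraries a group). HERC5 passed in both panels, and most points lie below 0.

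**Figure D4:**
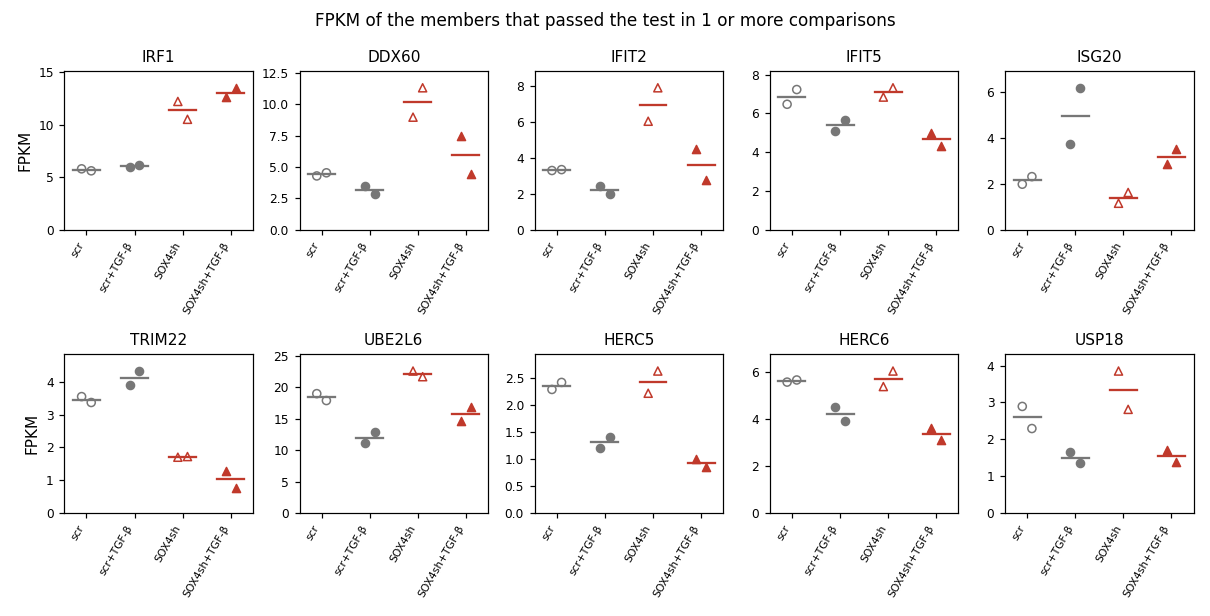
FPKM (linear axes that start at 0 and differ between panels) of the 10 genes that passed the test in 1 or more pairwise comparisons. Points are libraries, 2 per group, and horizontal lines group means, with grey circles for scrambled and red triangles for SOX4 shRNA, open untreated and filled TGF-β-treated. IRF1 is high and TRIM22 low in all 4 SOX4-shRNA libraries, and HERC5 is low in all 4 TGF-β-treated libraries.

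The difference of the TGF-β responses between SOX4-shRNA and scrambled cells was tested directly. None of the 26 genes passed (limma), against a background of 0% of 6132 genes, and 1 had an unadjusted p under 0.05, TRIM22. The median of the 26 differences was -0.11, against 0.00 for all genes. The calls above that passed in 1 kind of cell or state and not in the other are therefore not shown to differ between them.

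The other genes of the pathway comprised 87 genes, of which 47 were fitted. Among 9 interferon ligands, IFNE, an epithelial type I interferon, was the highest, at 0.962 to 4.18 FPKM, and it passed no test. The other 8 ligands stayed below 0.68 FPKM in every library as far as the table shows, with IFNB1 at 0 to 0.677 FPKM and IFNA2, IFNL3 and IFNG listed at 0. No receptor or JAK-STAT gene of the 7 fitted was called by limma in any comparison, and JAK1 had the smallest p with TGF-β in scrambled cells (0.49 ± 0.14, adjusted p = 0.082). At an unadjusted p under 0.05, 2 of the 7 were higher with TGF-β in each kind of cell, 1 was higher on knockdown untreated and 0 differed on knockdown with TGF-β or in the difference of responses.

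Among the 7 fitted genes of RNA and DNA sensing, DHX58 (LGP2), a helicase that regulates the RIG-I-like sensors, was the only one called. It was at 0.863 and 0.951 FPKM in untreated scrambled libraries, 2.2 and 1.92 FPKM in untreated SOX4-shRNA libraries, 0.891 and 0.573 FPKM in scrambled libraries with TGF-β and 1.63 and 1.75 FPKM in SOX4-shRNA libraries with TGF-β. All 4 SOX4-shRNA libraries were above all 4 scrambled ones, on 19 to 74 reads per library. DHX58 passed the filter of 1 FPKM only through the SOX4-shRNA libraries, so its calls are not independent of that filter. Untreated the rise was 0.68 ± 0.14 (adjusted p = 0.033). With TGF-β it was 0.64 ± 0.14 (adjusted p = 0.042). The untreated call ended without any 1 of the 6 libraries other than the TGF-β-treated SOX4-shRNA ones (adjusted p up to 0.18), and the call with TGF-β without any 1 of the 8 (adjusted p up to 0.34). RIGI, the sensor of short viral RNA ends, was at 9.45 and 10.3 FPKM in untreated scrambled and 15.8 and 19.8 FPKM in untreated SOX4-shRNA libraries, a difference of 0.78 ± 0.19 that did not pass the test (adjusted p = 0.060).

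Of 18 other fitted interferon-stimulated genes, IFITM2, a membrane protein that blocks viral entry, fell on knockdown in both states. It was at 18.3 and 16.8 FPKM in untreated scrambled libraries, 10.5 and 5.98 FPKM in untreated SOX4-shRNA libraries, 12.0 and 13.1 FPKM in scrambled libraries with TGF-β and 5.02 and 5.75 FPKM in SOX4-shRNA libraries with TGF-β. The fall was -1.05 ± 0.21 (adjusted p = 0.033) and -1.09 ± 0.21 (adjusted p = 0.030). These calls ended without any 1 of 5 libraries untreated, all but replicate 1 of the untreated and both TGF-β-treated SOX4-shRNA libraries (adjusted p up to 0.19, difference -1.41 to -0.69), and without any 1 of 6 with TGF-β, all but the untreated SOX4-shRNA ones (adjusted p up to 0.23). IFITM2 has a near-identical relative in IFITM3, so reads may be split between them. TRIM14, an adaptor of antiviral signalling, fell with TGF-β in both kinds of cell, from 23.5 and 22.3 to 14.8 and 16.5 FPKM in scrambled cells (-0.52 ± 0.12, adjusted p = 0.039) and from 30.1 and 25.8 to 19.0 and 19.4 FPKM in SOX4-shRNA cells (-0.52 ± 0.12, adjusted p = 0.039). The TRIM14 calls ended without any 1 of the 4 scrambled libraries in the first case (adjusted p up to 0.29) and without any 1 of the 8 in the second (adjusted p up to 0.13).

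IFI30, a lysosomal thiol reductase of antigen processing, fell with TGF-β in scrambled cells, from 20 and 19.9 to 12.6 and 13.2 FPKM (-0.59 ± 0.12, adjusted p = 0.030). With TGF-β it was higher in SOX4-shRNA libraries, at 18.5 and 21.8 FPKM (0.60 ± 0.12, adjusted p = 0.038). The IFI30 calls ended without any 1 of the 4 scrambled libraries (adjusted p up to 0.23) and, for the knockdown, without any 1 of 6 libraries, all but the untreated SOX4-shRNA ones (adjusted p up to 0.28). PARP12, a zinc-finger ADP-ribosyltransferase, rose with TGF-β in SOX4-shRNA cells from 14.8 and 12.9 to 21.8 and 22.6 FPKM (0.64 ± 0.11, adjusted p = 0.013), and this ended without replicate 2 of either SOX4-shRNA group (adjusted p up to 0.066). SOCS3, a feedback inhibitor of JAK signalling, rose with TGF-β in SOX4-shRNA cells from 1.96 and 0.941 to 3.13 and 3.98 FPKM (0.92 ± 0.21, adjusted p = 0.040), and this call was kept only without replicate 1 of the untreated SOX4-shRNA group (adjusted p up to 0.17 without another library). Over all 47 genes the medians were -0.02 untreated and 0.07 with TGF-β for the knockdown, and -0.02 and 0.06 for TGF-β in scrambled and SOX4-shRNA cells. No antigen presentation gene of the 9 fitted was called by limma in any comparison. At an unadjusted p under 0.05, 2 of the 9 were higher with TGF-β in SOX4-shRNA cells, 1 was lower on knockdown untreated and 0 differed in the other comparisons.

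For 10 of the 42 genes the decimal marks were not settled, because their reads are split over 2 to 6 transcripts. For IFIT1, IFIT3, SAMD9, PARP9 and TAP1, the readings of the main transcript that held 95.9% to 99.5% of the weight differed by the same factor of 10 in all 8 libraries. The ratios between groups are the same in both readings. No whole reads entered this weight, which favours small differences between replicates and between groups. Other readings, with other ratios, are therefore not excluded. IFIT3, a partner of IFIT1 and IFIT2, then stood at 5.91 and 6.47 FPKM in untreated scrambled libraries and 9.54 and 12.6 FPKM in untreated SOX4-shRNA libraries, or at 10 times these values. With TGF-β it stood at 4.39 and 5.29 FPKM and at 7.39 and 4.64 FPKM, or at 10 times these. At the lower reading its knockdown difference in untreated cells was 0.74 ± 0.24 and was not called in the fit of all kept genes (adjusted p = 0.25). IFIT1, which binds viral RNA caps, was at 2.32 and 3.03 FPKM in untreated scrambled and 2.33 and 3.60 FPKM in untreated SOX4-shRNA libraries at the lower reading. In that fit IFIT1, SAMD9, PARP9, TAP1 and the main transcript of OAS1 were not called in any comparison either, against backgrounds of 2.78% and 3.17% of all its genes with TGF-β in scrambled and SOX4-shRNA cells, 1.94% and 1.62% for the knockdown untreated and with TGF-β, and 0.455% for the difference of responses. Because small differences weighed more in choosing these readings, a lack of calls cannot show that these genes were unchanged. IRF7, STAT2, IFI27 and MX1 had reads that changed from 1 transcript to another between libraries, so that no level over all libraries can be given. For IFI27, 30 of 32 cells had only 1 reading. Its main transcript was at 0.784 and 0.513 FPKM in untreated scrambled and 0.946 and 0.806 FPKM in untreated SOX4-shRNA libraries. For MX1 the sum of its transcripts lies somewhere between 0.99 and 292 FPKM.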

How the data were processed

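The build hg19 and the tools TopHat2 2.0.9, Cufflinks 2.2.1 and Cuffdiff are named in the submitters' processing notes. Per the labels, the RNA was polyA, yet the kit named is a stranded one that depletes ribosomal RNA, and which holds is unsure. How libraries were scaled to each other, and whether reads were counted by strand, is not given in the sources used here. The deposited table holds 48175 RefSeq transcripts (97.8% matched to a symbol) in 8 columns, which were taken as FPKM because of those tools and the values themselves. The authors' file had lost the decimal mark in 34.1% of cells, and 13.9% were in damaged exponent notation, taken as below 1e-04 FPKM and set to 0. Marks were restored by searching for transcript lengths at which at least 6 of 8 cells are whole reads. A whole number was accepted within 0.003 reads, beside the rounding of the digits. Readings were weighed by level, by replicate spread and by the size of the TGF-β, knockdown and response differences. They were kept at a weight of 0.95 or more. Readings with small differences between groups thus weighed more, and those differences were then tested. Whole reads were found for 90.5% of 5955 genes with 1 transcript, against 0 of 2013 with random last digits. Genes with several transcripts were summed where the sum was whole, a step added after the files were seen.

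Groups came from the titles. log2(FPKM + 1) was fitted with limma 3.58.1 (R 4.3.3, intensity trend, 4 residual degrees of freedom) on genes with at least 1 FPKM in at least 2 libraries. Calls are at a Benjamini-Hochberg adjusted p under 0.05 over all 6132 genes. This scale understates the change of low genes. On simulated data for the untreated knockdown comparison (5204 genes), 90.5% of genes changed 2-fold and 93.2% of those changed 3-fold were called, with 9 unchanged genes called. The simulated spread beside counting noise was the same for all genes and groups, with no deviations shared between libraries. Real replicates differed more in SOX4-shRNA groups (median chi-square 5.13 and 5.09) than in scrambled groups (2.37 and 1.20). These shares therefore need not hold for the real libraries. Named were SOX4, all 42 members, and genes of the other lists that were called or had the smallest p. The members and lists were chosen with earlier results of these data known. Gene coordinates are from GENCODE 44 on GRCh37 and promoters from RefSeq on GRCh38.p14. The alternatives were another pseudocount, no filter, a common median, no trend, replicate blocks, all kept genes, genes with 1 transcript and leaving out each library.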

Additional observations from a re-analysis of the deposited data

Results flagged for a closer look

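With TGF-β, TRIM22 was higher in both scrambled libraries (3.91 and 4.33 FPKM, against 3.55 and 3.37 untreated) and lower in both SOX4-shRNA libraries (1.29 and 0.753 FPKM, against 1.70 and 1.72 untreated). It stands here because every library of one kind of cell moved opposite to every library of the other. The difference of the responses in log2(FPKM + 1) was -0.64 ± 0.21 (SE; unadjusted p = 0.017), and it did not pass the test over all genes (limma adjusted p = 0.99). Its reads are assigned to another transcript in the untreated SOX4-shRNA libraries than in the rest, and the part of this in the result was not tested. Groups of 2 libraries are too small to look for single outlying libraries.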

How the results depend on the processing

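The 26 genes gave 13 calls over the 4 pairwise comparisons, and none of them changed sign under the 16 alternatives run. All 13 were kept without the intensity trend, 11 with libraries scaled to a common median, 10 with a pseudocount of 0.1 FPKM, 8 of the 9 that could be tested among genes with 1 transcript only (an alternative chosen after seeing the data), and 4 without the filter on low values and also 4 with all kept genes, where more genes are tested. Leaving out 1 library kept 3 to 10 of the 13, and the library left alone in its group is then assumed to vary like the others. By comparison, 3 genes were called with TGF-β in scrambled cells, 4 in SOX4-shRNA cells, 4 for the knockdown untreated and 2 with TGF-β, and leaving out 1 library gave 0 to 3, 0 to 4, 0 to 7 and 1 to 4. Without the filter these counts were 0, 1, 1 and 2, as with all kept genes, and for the knockdown untreated a pseudocount of 0.1 FPKM or genes with 1 transcript only gave 2, with 1 for the latter with TGF-β. Over all genes, 421 were called with TGF-β in scrambled cells, 460 in SOX4-shRNA cells, 300 for the knockdown untreated, 264 with TGF-β and 0 for the difference of responses. Without the filter, 279 genes were called with TGF-β in scrambled cells and 178 for the knockdown untreated. With all kept genes, where 1 transcript stands for a gene and marks are not settled, 55 genes were called for the difference of responses. Leaving out 1 library gave 27 to 492, 201 to 356, 61 to 306, 48 to 285 and 0 to 2 calls in the same order. The lowest of these came without TGF-β-treated scrambled replicate 2 (27 and 48), TGF-β-treated SOX4-shRNA replicate 2 (201) and untreated scrambled replicate 1 (61). Same-numbered libraries deviated together within a treatment (correlations of 0.502 untreated and 0.278 with TGF-β). Across treatments they deviated apart (-0.574 to -0.164 over 4 pairs of groups). The numbers as given thus line up libraries within a treatment and not across treatments, and the main fit had no replicate block. With a replicate block, 191, 263, 164 and 146 genes were called in the pairwise comparisons, and 6 of the 13 calls among the 26 genes were kept (1, 3, 1 and 2 genes called). With the numbers of the TGF-β groups exchanged, a crossed replicate block chosen after seeing the data, 1453, 1378, 953 and 740 genes were called, and 8, 10, 9 and 8 of the 26, with all 13 calls kept and 22 added. Few reads limit ISG20, TRIM22, BST2, DHX58 and the genes below 1 FPKM.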
